A study of Arabidopsis thaliana with 2 samples.

Results

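These are the stretches of the Arabidopsis thaliana genome where methylation differed from Col wild type in the CHH context right beside a difference in the CHG context (H is any base but G). They were selected from the region lists that the authors deposited for the lines ddb2-3 and cen, each set against Col. A CHH region on chromosomes 1 to 5 was taken when the distance from its end to the start of a CHG region of the same comparison, or the reverse, was at most 200 bp. On the 100 bp grid of these lists, such a pair overlaps, abuts or has 1 empty window between. The rule gave 378 of 4490 CHH regions for ddb2-3, or 8.42% (95% Wilson interval 7.64 to 9.27), and 657 of 4993 for cen, or 13.2% (12.2 to 14.1). Together they are 1035 of the 83934 regions in the 6 lists.

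The labels describe whole-genome bisulfite sequencing of seedlings aged 10 days, grown in liquid medium, with 1 library of ddb2-3 and 1 of Col. ddb2-3 carries the insertion DsLoxHs195_05H, and Col is labelled WT. The line called cen has a deposited comparison with the same Col but no sample in the labels used here, which do not give its genotype. Each list gives a position and a difference in methylation level per region, with no reads, coverage or p-value, so the depth behind every value is unknown.

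In bisulfite sequencing unmethylated cytosines are converted and methylated ones are not, so the share of unconverted reads gives a methylation level. In Arabidopsis, CHG methylation is maintained mainly by the methyltransferase CMT3, which binds histone H3 methylated at lysine 9, and the histone methyltransferases KYP, SUVH5 and SUVH6 are in turn drawn to methylated DNA. CHH methylation has separate sources. CMT2 methylates CHH sites in the heterochromatin around centromeres and in long transposons, while DRM2 is guided by small RNAs to short transposons and transposon edges along the arms, in the pathway called RNA-directed DNA methylation. DDB2, the gene disrupted in ddb2-3, encodes a protein that recognises ultraviolet damage in global genome repair.

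Differences are given as ddb2-3 or cen minus Col, on the scale of methylation level from 0 to 1. This direction was inferred from the lists, and were the inference mistaken, all gains named here would be losses and all losses gains. Values credited below to the authors' deposited tables are printed after this turn, with the sign opposite to the deposited one. Both lists hold only differences above 0.1 in absolute size, and the members were chosen by being in both, so sizes, directions and shares describe the lists. With 1 library each of ddb2-3 and Col, and no labelled sample of cen, no test across plants was possible. Intervals cover counting error only and understate the uncertainty, because neighbouring regions are not independent.

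Most members were higher in the line than in Col. In ddb2-3, 277 of the 378 CHH members were higher, or 73.3% (68.6 to 77.5), beside 2871 of 4112 other CHH regions, or 69.8% (68.4 to 71.2). In that comparison 70.1% of all CHH regions and 60.7% of all CHG regions were listed as higher in ddb2-3, so the members' share was near the background. In cen, 582 of the 657 were higher, or 88.6% (85.9 to 90.8), beside 3338 of 4336 other CHH regions, or 77.0% (75.7 to 78.2). There 78.5% of all CHH regions and 89.8% of all CHG regions were listed as higher in cen, and the members' share lay close to that of the CHG list. The members were chosen from these same comparisons, and nothing is read from the shares beyond the counts.

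The CHH region mostly went the way of its CHG partner, the nearest CHG region. In ddb2-3 both were higher at 237 places and both lower at 84, so that 321 of 378 pairs (84.9%, 81.0 to 88.2) had the same sign. A higher CHH region stood beside a lower CHG region 40 times, and the reverse was found 17 times. In cen both were higher at 556 places and both lower at 53, or 609 of 657 pairs of the same sign (92.7%, 90.4 to 94.4), with 26 and 22 of the mixed kinds. Mixed pairs thus made up a minority in both lists, and in ddb2-3 most of them combined a CHH gain with a CHG loss.

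**Figure D1:**
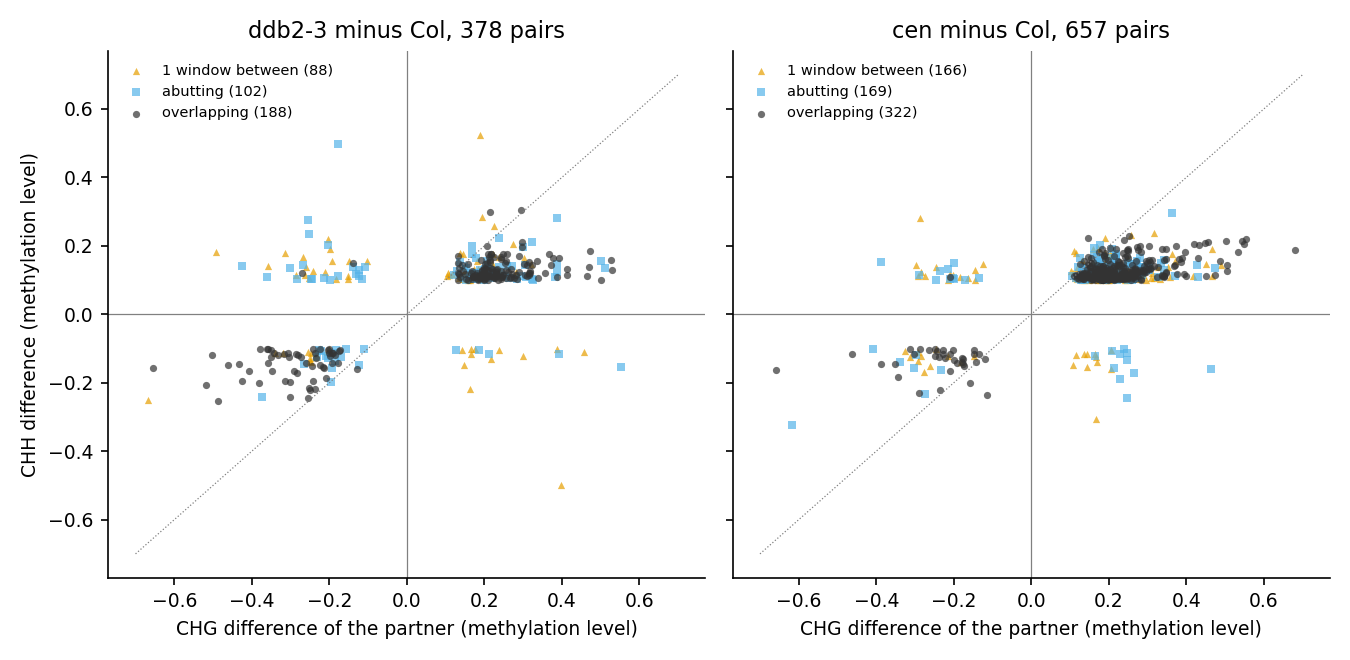
CHH difference (vertical axis) against the CHG difference of the partner (horizontal axis), both in methylation level and line minus Col, for 378 pairs of ddb2-3 (left) and 657 of cen (right). Each point is a pair, marked by how close the regions lie, and the dotted line marks equal differences. Overlapping pairs (dark circles) fill the lower left and upper right corners, most points lie on the CHG side of the dotted line, and the empty band around 0 is the limit of the lists.

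Agreement of sign was nearly complete where the regions overlapped and fell with distance. In ddb2-3, 186 of 188 overlapping pairs had the same sign (98.9%, 96.2 to 99.7), against 77 of 102 abutting pairs (75.5%, 66.3 to 82.8) and 58 of 88 with 1 window between (65.9%, 55.5 to 75). In cen the counts were 321 of 322 (99.7%, 98.3 to 99.9), 147 of 169 (87.0%, 81.1 to 91.2) and 141 of 166 (84.9%, 78.7 to 89.6). Since most regions of both contexts were higher, some pairs share a sign through that alone. The share of CHH regions higher was therefore split by the direction of the CHG partner.

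Beside a higher CHG region the CHH region was higher in 130 of 130 overlapping pairs of ddb2-3, and beside a lower one in 2 of 58 (3.45%). In abutting pairs of ddb2-3 these shares were 61 of 66 (92.4%) beside a higher and 20 of 36 (55.6%) beside a lower CHG region. With 1 window between they were 46 of 58 (79.3%) and 18 of 30 (60%). The gap between the shares narrowed at each step. The 55.6% beside a lower abutting CHG region rests on 36 pairs and was below the 70.1% of all CHH regions of ddb2-3 listed as higher.

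The CHH regions just outside the 200 bp limit, with 2 empty windows between, give the comparison at the edge of the rule. In ddb2-3 these 62 regions were higher in 25 of 36 cases (69.4%) beside a higher and in 17 of 26 cases (65.4%) beside a lower CHG region. Their median absolute difference was 0.117 in CHH and 0.201 in the nearest CHG region, close to the 0.12 and 0.203 of the members with 1 window between. At 3 to 5 windows the shares were 76.7% and 75.2%, and at 5 to 50 kb they were 68.6% and 69.6%. From 2 windows outward in ddb2-3, the CHH direction thus hardly varied with the direction of the CHG region.

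In cen the shares also stood farthest apart where the regions overlapped. Beside a higher CHG region 286 of 286 overlapping CHH regions were higher, against 1 of 36 (2.78%) beside a lower one. Abutting pairs gave 140 of 151 (92.7%) and 11 of 18 (61.1%), and pairs with 1 window between gave 130 of 141 (92.2%) and 14 of 25 (56%). Just outside the limit, the 123 regions with 2 windows between were higher in 94 of 111 cases (84.7%) and 10 of 12 cases (83.3%), with median absolute differences of 0.115 in CHH and 0.186 in CHG. The gap between the shares did not narrow from abutting pairs to pairs with 1 window between, and at 3 to 5 windows the shares were 84.1% beside higher and 92% beside lower CHG regions. Counts beside lower CHG regions were small in cen, at 12 with 2 windows and 25 with 3 to 5 windows between.

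**Figure D2:**
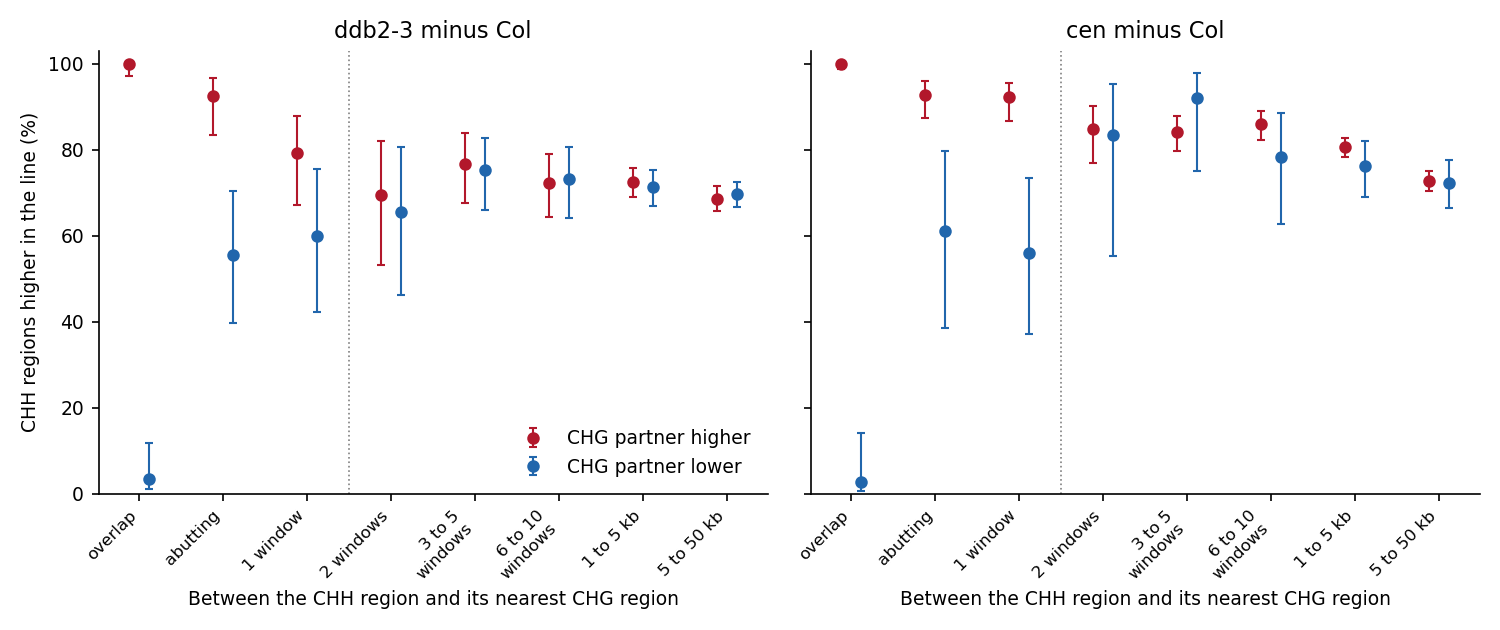
Share of CHH regions that were higher in the line (vertical axis, %) by what lies between the CHH region and its nearest CHG region (horizontal axis), where that CHG region was higher (red) or lower (blue), for ddb2-3 (left) and cen (right). Bars are 95% Wilson intervals and the dotted line marks the 200 bp limit. Red and blue points stand far apart for overlapping regions, at 100% and 3.45% in ddb2-3, and lie close together at 5 to 50 kb, at 68.6% and 69.6%.

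The CHH difference was usually the smaller of the pair. It was below the CHG difference in 346 of 378 pairs of ddb2-3 (91.5%, 88.3 to 93.9) and in 623 of 657 pairs of cen (94.8%, 92.9 to 96.3). The median ratio of the absolute CHH to the absolute CHG difference was 0.581 in ddb2-3 (0.557 to 0.602) and 0.595 in cen (0.573 to 0.619). The ratios of individual pairs ranged between 0.202 and 2.78 in ddb2-3 and between 0.241 and 2.07 in cen. The CHG lists as a whole hold larger differences than the CHH lists, and both are truncated at 0.1, so a ratio below 1 is not a property of the pairs alone.

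CHH differences of the members were about as large as those of other CHH regions, while their CHG partners were larger than other CHG regions. The median absolute CHH difference was 0.121 for members (0.118 to 0.126) and 0.125 for other CHH regions (0.124 to 0.126) in ddb2-3, and 0.118 (0.116 to 0.121) and 0.121 (0.12 to 0.122) in cen. The median absolute CHG difference of the partners was 0.217 (0.210 to 0.228) in ddb2-3, against 0.177 (0.175 to 0.179) for CHG regions beside no CHH region. In cen it was 0.203 (0.199 to 0.209) against 0.173 (0.171 to 0.174). Overlapping partners of ddb2-3 had a median of 0.233, and abutting partners 0.203. Partners that were lower together with their CHH region had the larger medians, at 0.247 in ddb2-3 and 0.244 in cen, against 0.211 and 0.2 for partners that were higher together with it.

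Within pairs, size in one context said little about size in the other. Over the 378 pairs of ddb2-3 Spearman's rho between the absolute differences was 0.23, and over the 657 of cen it was 0.24. The pairs of a line share both libraries and the limit of 0.1, and these values are a description. Large CHH differences were few, since 27 members of ddb2-3 (7.14%) and 25 of cen (3.81%) reached 0.2, against 8.12% and 7.24% of other CHH regions.

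Seen from the CHG side, a CHG region had a CHH region beside it in 376 of 4440 cases in ddb2-3 (8.47%) and 646 of 6832 in cen (9.46%). The share grew with the size of the CHG difference. In ddb2-3 it was 4.90% (4.17 to 5.76) for differences of 0.1 to 0.2, 12.2% (10.6 to 14.1) for 0.2 to 0.3, 25.6% (20.1 to 32.0) for 0.3 to 0.4 and 30.6% (21.1 to 42.0) for 0.4 or more. In cen it was 6.76%, 13.0%, 24.7% and 35.8% (26.2 to 46.7) over the same classes. The top class held 72 CHG regions in ddb2-3 and 81 in cen. In ddb2-3, 14.6% of CHG regions with a CHH region were longer than 1 window, against 9.42% of those with none. In cen these shares were 22.1% and 14%. The size classes were not split by length, and its part in the rise was not tested.

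**Figure D3:**
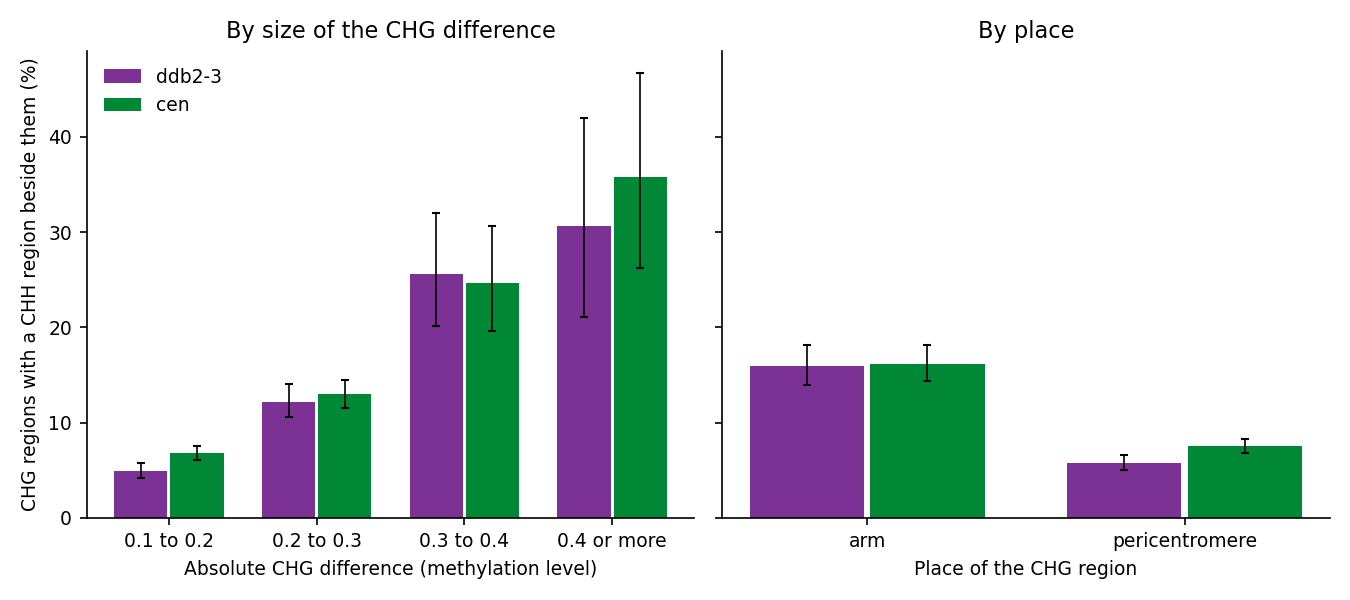
Share of CHG regions that had a CHH region within 200 bp (vertical axis, %), by absolute CHG difference in methylation level (left) and by place on the chromosome (right), for ddb2-3 (purple) and cen (green), with 95% Wilson intervals. The bars climb with the CHG difference in both lines, and those of the arms, at 15.9% and 16.2%, stand above those of the pericentromeres, at 5.76% and 7.52%.

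Members were spread over arms and pericentromeres, the latter taken as 3 Mb to each side of each centromere. In ddb2-3, 186 of 378 members (49.2%, 44.2 to 54.2) lay in pericentromeres, close to the 47.1% (45.6 to 48.7) of other CHH regions. In cen, 401 of 657 (61.0%, 57.3 to 64.7) did, against 54.7% (53.2 to 56.2) of other CHH regions. More of the cen members lay within 1 Mb of the centre, at 20.9% (17.9 to 24.1) against 16.8% (15.7 to 17.9), and from 1 to 2 Mb, at 25.3% (22.1 to 28.7) against 21.1% (19.9 to 22.3).

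**Figure D4:**
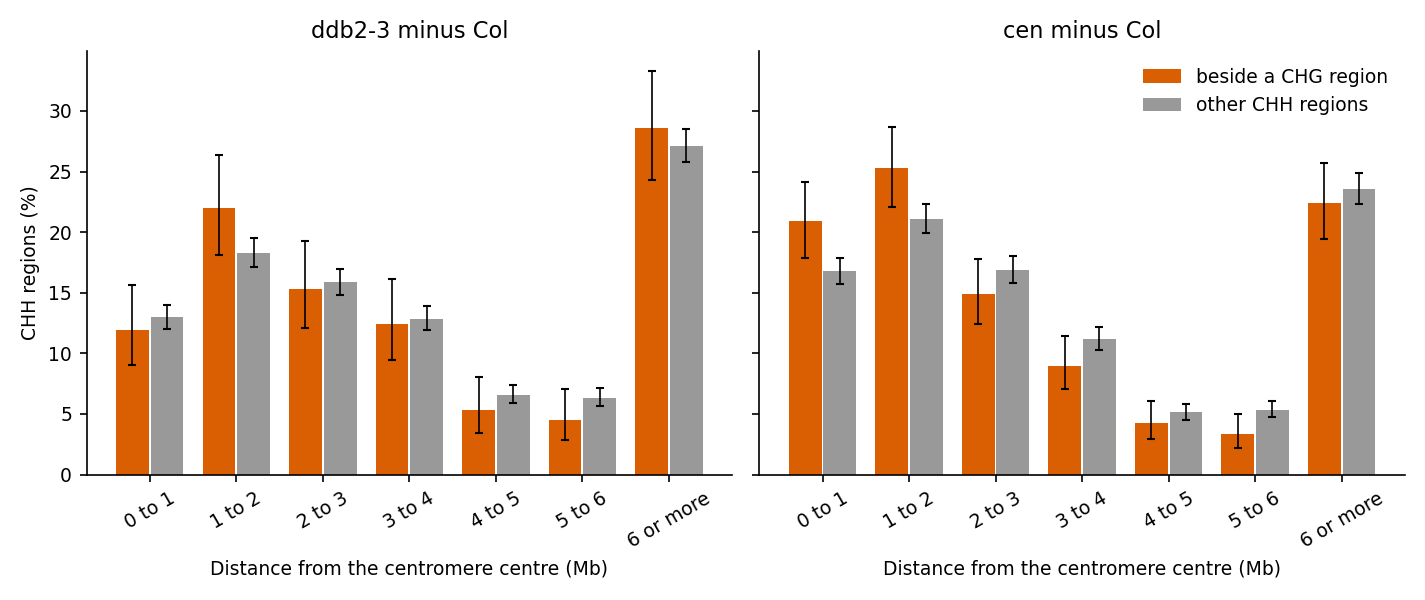
Share of CHH regions (vertical axis, %) by distance of the region midpoint from the centromere centre (horizontal axis, Mb), for CHH regions beside a CHG region (orange) and other CHH regions (grey), in ddb2-3 (left) and cen (right), with 95% Wilson intervals. In ddb2-3 the intervals of both groups overlap in every class, at 11.9% and 13.0% within 1 Mb. In cen the orange bars are the higher ones within 2 Mb, at 20.9% and 16.8% for the innermost Mb.

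A CHG difference had a CHH neighbour more often on the arms. In ddb2-3, 189 of 1191 CHG regions on the arms (15.9%, 13.9 to 18.1) had one, against 187 of 3249 in pericentromeres (5.76%, 5.01 to 6.61). In cen the counts were 247 of 1527 (16.2%, 14.4 to 18.1) and 399 of 5305 (7.52%, 6.84 to 8.26). With CHG regions of a single window alone, the shares were 15.4% and 5.48% in ddb2-3 and 15.6% and 6.72% in cen. On the arms of ddb2-3 the share was 21.2% (18.0 to 24.8) for higher and 11.4% (9.13 to 14) for lower CHG regions, whereas on the arms of cen it was 15.5% (13.6 to 17.6) and 19.8% (15.3 to 25.1). The lines were compared with the same Col library and were not tested against each other.

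Direction varied with place in cen. There 378 of 401 pericentromeric members (94.3%, 91.5 to 96.1) were higher, against 204 of 256 on the arms (79.7%, 74.3 to 84.2). The other CHH regions of cen also split this way, at 82.9% (81.3 to 84.4) in pericentromeres and 69.8% (67.8 to 71.8) on the arms. In ddb2-3 the shares were 140 of 186 (75.3%, 68.6 to 80.9) and 137 of 192 (71.4%, 64.6 to 77.3), with intervals that overlap. By chromosome, the pericentromeric members of ddb2-3 were higher at between 65.2% on chromosome 4 and 87.8% on chromosome 3, and those of cen at between 91.7% on chromosome 1 and 96.2% on chromosome 4. In ddb2-3 the pairs had the same sign in pericentromeres and on the arms alike, at 157 of 186 (84.4%, 78.5 to 88.9) and 164 of 192 (85.4%, 79.7 to 89.7). In cen they did at 379 of 401 (94.5%, 91.8 to 96.3) and 230 of 256 (89.8%, 85.5 to 93.0).

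Among annotated genes, members differed from other CHH regions mainly at pseudogenes, a class of the gene table that can hold transposon genes. A midpoint in a pseudogene was found for 80 of 378 members of ddb2-3 (21.2%, 17.3 to 25.6), against 11.4% (10.4 to 12.4) of other CHH regions, and for 171 of 657 of cen (26.0%, 22.8 to 29.5), against 13.3% (12.4 to 14.4). The CHG regions beside a CHH region lay in pseudogenes at 22.9% (18.9 to 27.4) in ddb2-3 and 29.3% (25.9 to 32.9) in cen, while the CHG regions beside none did so at 46.6% (45.1 to 48.2) and 48.2% (46.9 to 49.4). The places where both contexts differed thus stood between the bulk of the CHH list and the bulk of the CHG list. The CHG groups also differed in place. Those beside a CHH region lay in pericentromeres at 49.7% in ddb2-3 and 61.8% in cen, against 75.3% and 79.3% of those beside none. Their pseudogene shares were not split by place. Members in pseudogenes were higher in 68 of 80 cases in ddb2-3 (85.0%, 75.6 to 91.2), against 75.4% (71.3 to 79.1) of other CHH regions in pseudogenes. In cen they were higher in 162 of 171 cases (94.7%, 90.3 to 97.2), against 81.5% (78.1 to 84.4). Of these members, 56 in ddb2-3 and 134 in cen lay in pericentromeres, where 75.3% and 94.3% of all members were higher. Direction in pseudogenes was not split by place.

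Protein-coding genes held 22 members of ddb2-3 (5.82%, 3.87 to 8.65) and 38 of cen (5.78%, 4.24 to 7.84), beside 7.05% and 6.73% of other CHH regions. A further 120 members of ddb2-3 (31.7%) and 171 of cen (26.0%) lay within 1 kb of either end of such a gene. The shares of other CHH regions there were 33.9% and 29.5%, so members did not stand above them. On the arms alone the members' shares were 44.8% and 43.4%, with no share of other CHH regions to set beside them. A member lay in or within 1 kb of 189 of 27444 protein-coding genes (0.689%) in ddb2-3 and of 267 (0.973%) in cen. The remaining class, outside all genes and the 1 kb flanks of protein-coding genes, held 39.9% of members and 46.8% of other CHH regions in ddb2-3. In cen it held 40.6% and 49.6%, and pseudogenes or RNA genes may lie within 1 kb of such regions.

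**Figure D5:**
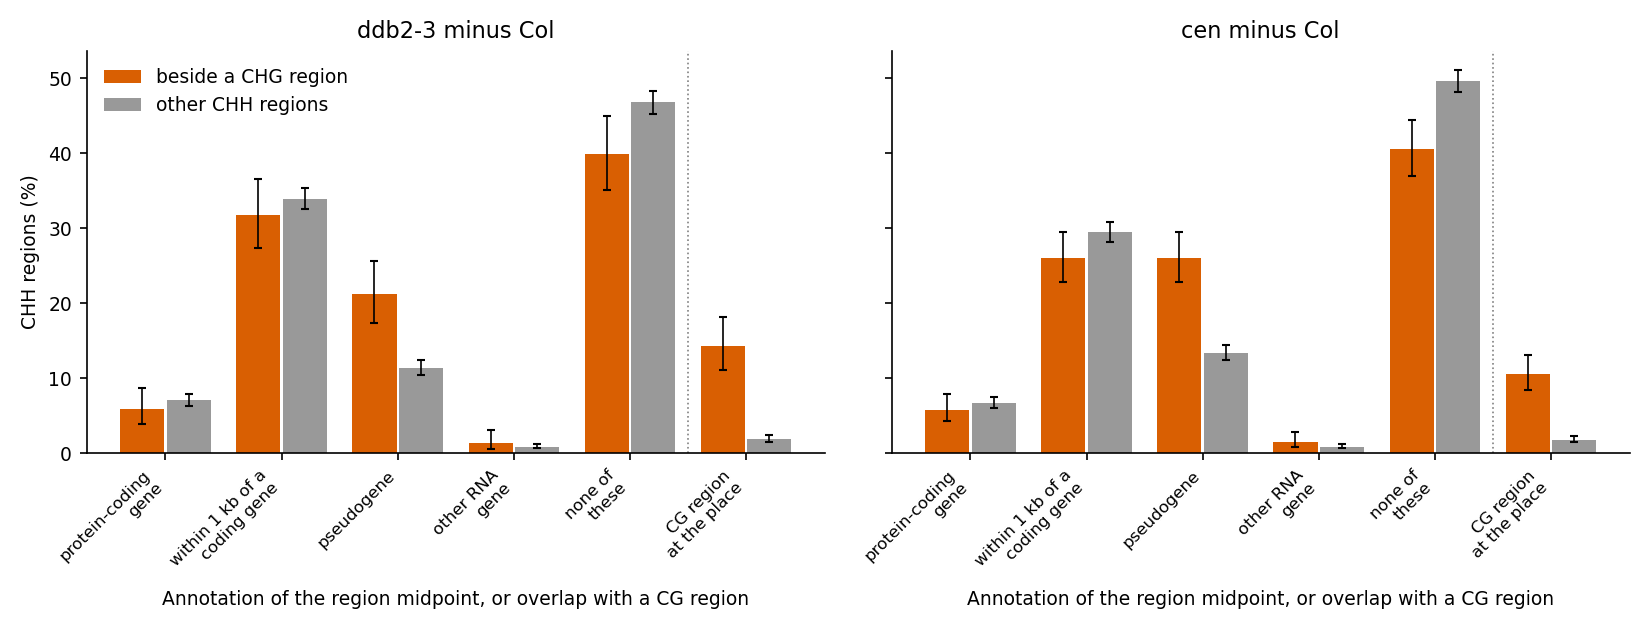
Share of CHH regions (vertical axis, %) with their midpoint in each class of the gene table and, right of the dotted line in each panel, sharing a base with a CG region, for CHH regions beside a CHG region (orange) and other CHH regions (grey), in ddb2-3 (left) and cen (right), with 95% Wilson intervals. The orange bars stand above the grey ones for pseudogenes, at 21.2% and 11.4% in ddb2-3, and for overlap with a CG region, at 14.3% and 1.92%.

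Members shared a place with a CG difference more often than other CHH regions did. CG methylation is copied at each replication by MET1. The rule did not use CG regions, but it placed every member within 200 bp of a CHG region. In ddb2-3, 54 of 378 members (14.3%, 11.1 to 18.2) shared a base with a CG region, against 79 of 4112 other CHH regions (1.92%, 1.54 to 2.39). In cen 69 of 657 members (10.5%, 8.38 to 13.1) did, against 78 of 4336 (1.80%, 1.44 to 2.24). Seen from the CHG side, regions beside a CHH region shared a base with a CG region at 22.3% (18.4 to 26.8) in ddb2-3, against 14.3% (13.3 to 15.4) of CHG regions beside none. In cen these shares were 19.0% (16.2 to 22.2) and 13.2% (12.4 to 14.1). In neither line was the share of members above that of CHG regions beside no CHH region. The contrast with other CHH regions is thus not independent of the rule. The CG difference had the sign of the CHH difference in 51 of 54 cases in ddb2-3 and 68 of 69 in cen. All contexts were higher at 28 members of ddb2-3 and lower at 23, against 53 higher and 15 lower in cen.

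The largest paired gains of ddb2-3, ranked by the smaller difference of the pair, lay near protein-coding genes, in pseudogenes or outside both. In the authors' deposited tables the first was chromosome 5, 19544801 to 19544900 (TAIR10, as are all positions), with a CHH difference of 0.305 and a CHG difference of 0.296 in the same window, within 1 kb of the protein-coding genes AT5G48190 and AT5G48200. Next in the authors' deposited tables came chromosome 4, 6908401 to 6908600, with 0.280 in CHH and 0.387 in the abutting CHG window, within 1 kb of RHA1A (AT4G11370), which encodes a protein with a RING-H2 finger. Another same-sign gain, 0.257 in CHH and 0.225 in CHG in the authors' deposited tables, lay in the pseudogene AT4G08710, within 1 kb of ATPUP13, of the purine permease family. The other members among the top 5 gains had a lower CHG region beside them. Gains of this size were rare, since the 90th percentile of all higher members was 0.177 in CHH. In the authors' deposited tables the chromosome 5 window was also a member in cen, at 0.142 in CHH and 0.368 in CHG. So was the window in AT4G08710, at 0.113 and 0.219 in the authors' deposited tables. A CHH region of cen, at 0.115 in the authors' deposited tables, overlapped the place near RHA1A, but no member of cen did. No member of cen overlapped the others of these 5.

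Paired losses of ddb2-3 reached similar sizes. The window from 4408001 to 4408100 on chromosome 1 lies over 1 kb from any annotated gene, and the authors' deposited tables gave -0.254 in CHH and -0.488 in CHG there. In the pseudogene AT1G54926 they were -0.252 in CHH and, with 1 window between, -0.667 in CHG, the largest CHG difference beside any member of ddb2-3 in the authors' deposited tables. Within 1 kb of SERPIN1 (AT1G47710), a serine protease inhibitor, and of OSB1 (AT1G47720), a single-stranded DNA binding protein of mitochondria, the authors' deposited tables gave -0.221 in CHH, -0.251 in CHG and -0.422 in CG at chromosome 1, 17560801 to 17561000. This was a loss in all contexts beside both genes.

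A few protein-coding genes held the region itself. AT3G09960 held a gain in every context in ddb2-3, with differences of 0.185 in CHH, 0.473 in CHG and 0.690 in CG at chromosome 3, 3063501 to 3063600, in the authors' deposited tables. AT2G15340 did too, at 0.168, 0.243 and 0.562 in the authors' deposited tables. In cen the leading members within genes included AT3G17400, with 0.158 in CHH and 0.341 in CHG in the authors' deposited tables, and AT2G32150, with -0.20 in CHH, -0.159 in CHG and -0.111 in CG there. The gene at AT3G17400 was also a member in ddb2-3, at 0.110 and 0.212 in the authors' deposited tables. These genes are known here by their locus names only.

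In cen the largest same-sign gain lay close to a centromere. The authors' deposited tables gave 0.296 in CHH and 0.364 in CHG at chromosome 1, 15042501 to 15042800, 0.0427 Mb from the centre used here. PAP26 (AT5G34850), which encodes a purple acid phosphatase, had differences of 0.229 in CHH and 0.251 in CHG within 1 kb in the authors' deposited tables. On chromosome 2 a single CHG region of cen from 7632601 to 7633700 had a difference of 0.347 in the authors' deposited table and held 3 CHH members, of 0.161, 0.121 and 0.191. It lay near TRM26 (AT2G17550) and AT2G17540 and reached into the long noncoding RNA gene AT2G06995, with a CG difference of 0.594 in the authors' deposited table. A member of ddb2-3 overlapped it, from 7632701 to 7632900. In the authors' deposited tables that member had 0.177 in CHH, 0.248 in CHG and 0.279 in CG, against the same Col. Few CHG regions served several members, since the 657 members of cen had 637 different nearest CHG regions and the 378 of ddb2-3 had 369.

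A loss of cen lay near a gene of silencing. Within 1 kb of DMS11 (AT1G19100), also known as MORC6, an ATPase needed for gene silencing, the authors' deposited tables gave -0.232 in CHH at chromosome 1, 6594001 to 6594100, -0.274 in the abutting CHG region and -0.663 in CG. No member of ddb2-3 overlapped this place. The largest paired loss of cen was -0.323 in CHH beside -0.616 in CHG at chromosome 1, 17041801 to 17041900, over 1 kb from any annotated gene, in the authors' deposited tables.

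Some places were members in both comparisons, which share the Col library, so their values are set side by side without a count. Near AT2G34730 (chromosome 2, 14653601 to 14653700) the authors' deposited tables gave -0.219 in CHH, -0.236 in CHG and -0.728 in CG for ddb2-3, and -0.222, -0.236 and -0.724 for cen. Near RABA5a (AT5G47520), a Rab GTPase of membrane traffic, the CHH and CHG differences were -0.198 and -0.301 in ddb2-3 and -0.229 and -0.289 in cen, in the authors' deposited tables. In the pseudogene AT1G32590 they were 0.165 and 0.393 in ddb2-3 and 0.214 and 0.503 in cen, in the authors' deposited tables. With a shared Col, a level peculiar to that library would appear in both comparisons, and its part in these values was not tested.

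Of the 5 widest pairs of opposite sign in ddb2-3, 3 had the midpoint of the CHH region in a pseudogene. The other 2 lay outside genes and the flanks of protein-coding genes. The widest, at chromosome 5, 11690001 to 11690100 in AT5G31719 and MIR854d, had a CHH difference of -0.500 and a CHG difference of 0.397 with 1 window between, in the authors' deposited tables. AT2G03100 had 0.275 in CHH beside -0.255 in CHG, and AT1G78350 had 0.202 beside -0.202, both in abutting windows, in the authors' deposited tables. Outside genes, the authors' deposited tables gave 0.235 beside -0.252 at chromosome 2, 2632801 to 2633100, and 0.221 beside -0.203 at chromosome 3, 3812301 to 3812400. The widest opposite pair of cen was near AT2G14700, with 0.282 in CHH and -0.288 in CHG across 1 window, in the authors' deposited tables. None of these pairs overlapped, and only 2 overlapping pairs of ddb2-3 and 1 of cen had opposite signs.

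Genes with several members were few. No gene of ddb2-3 had 3 members in it or within 1 kb, and 5 genes of cen had 3 each, the pseudogenes AT1G52020, AT1G56675 and AT5G28826, the noncoding RNA gene AT2G06995 and the protein-coding gene AT5G34828. At AT5G28826 all 3 CHH differences were small, at 0.102, 0.103 and 0.104 in the authors' deposited table, beside CHG differences between 0.180 and 0.205. AT1G52020 was mixed, with 0.211, -0.127 and 0.148 in CHH from the authors' deposited table after the turn of sign. Each had the sign of its CHG partner. The other 4 genes had higher members alone.

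Of the 82 genes on 5 lists of known function, members lay at 1 gene in each line. No member in either line lay in or within 1 kb of the 23 genes of RNA-directed DNA methylation, the 11 of methylation maintenance and silencing, the 9 of active demethylation or the 17 of global genome repair and photorepair. These zero counts stand beside 0.689% and 0.973% of all protein-coding genes with a member, and the lists are short. DMS11 (MORC6), described above for cen, is on none of the lists. Among the 22 genes of methylation-sensitive or imprinted expression, HDG9 (AT5G17320), an imprinted homeobox gene, held a loss in ddb2-3, with -0.126 in CHH, -0.235 in CHG and -0.258 in CG at chromosome 5, 5707001 to 5707100, in the authors' deposited tables. FWA (AT4G25530), an imprinted homeobox gene silenced by methylated repeats in vegetative tissue, held a gain in cen, with 0.114 in CHH and 0.228 in CHG at chromosome 4, 13038401 to 13038500, in the authors' deposited tables. Neither place was a member in the other line.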

How the data were processed

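Tools named in the submitters' processing notes are FastQC, cutadapt, Trim Galore, Bismark and Bowtie2 2.0, with the TAIR10 genome. The region caller, its test and threshold and the coverage it required are not stated in the sources used here. The 6 deposited lists hold positions and another kind of value, a difference in methylation level, and the CHH lists carry the context label CDMR in their attributes. Deposited values were turned in sign to give line minus Col. The direction was inferred from regions with identical values (within 1.5e-06) in both comparisons, of which 806 of 818 in CG and 5 of 5 in CHH were positive as deposited (4 of 7 in CHG). Equal levels in both lines are likeliest where these are unmethylated.

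Distances were counted as start minus end. Each member was paired with its nearest CHG region, ties going to more shared bases, then to the larger difference. Regions on organelle genomes (3 CHH regions of ddb2-3) were left out. Centromere centres were 15, 3.6, 14, 4 and 12 Mb on chromosomes 1 to 5. Genes came from the RefSeq table of TAIR10.1, whose coordinates are not given, by region midpoint. Of every 10th CG region of ddb2-3, 78% fell in protein-coding genes in place, against 58.8% and 56.9% moved by 5000 bp. The table has no strand, exon, UTR or transposon features, and no sequence was used here.

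Named places are, per line, the 5 widest by the smaller difference of the pair in each direction, of opposite sign, with a CG region and within protein-coding genes, the 5 widest members of both lines, listed genes and genes with 3 members, of which the text gives a part. The members, the lists and this rule were chosen with earlier results of these data known. No test was run. Shares have Wilson intervals and medians order-statistic intervals, both at 95%. The pairing and placement steps were tested on simulated data. Software was matplotlib 3.10.9, NumPy 2.4.6, pandas 2.3.3, SciPy 1.17.1 and Python 3.11.15.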

Additional observations from a re-analysis of the deposited data

Results flagged for a closer look

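A single place was a member in both lines with opposite directions in both CHH and CHG, within 1 kb of AT2G27229 on chromosome 2. In ddb2-3 the authors' deposited tables gave a CHH difference of 0.206 at 11649001 to 11649100 and a CHG difference of 0.274 at 11649201 to 11649600. In cen they gave -0.162 in CHH at 11648901 to 11649100 and -0.233 in CHG at 11649101 to 11649500. With 1 library of ddb2-3 and no labelled sample of cen, the difference between the lines was not tested.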

How the results depend on the processing

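Of 126 alternative values, 85 stayed within the interval or within 1.5 times the count and 41 moved beyond it. Only values of the members were recomputed, not those of the other CHH or CHG regions they are compared with. The limits are mainly those of the lists: 1 library per labelled line, no labelled sample of cen, unknown depth, differences cut at 0.1 and an inferred sign.

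With overlap required, members numbered 188 in ddb2-3 and 322 in cen, 98.9% and 99.7% of pairs had the same sign, the median CHG difference was 0.233 and 0.211, and the median ratio 0.551 and 0.568. At 100 bp the same-sign share was 90.7% in ddb2-3 and 95.3% in cen, and with up to 2 empty windows, an alternative chosen after seeing the data, 80.7% and 90.4%. At 500 bp there were 579 and 1006 members, with 72.5% and 88.3% of the same sign and, in ddb2-3, a median ratio of 0.603. The same-sign share thus followed the distance allowed.

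With differences of at least 0.15 in both contexts, 82 members were left in ddb2-3 and 112 in cen. Of these 65.9% and 82.1% were higher, 34.1% and 48.2% lay in pericentromeres, 46.3% and 43.8% in or within 1 kb of a protein-coding gene and 17.1% and 21.4% in pseudogenes. Medians were 0.178 and 0.173 in CHH, 0.253 and 0.249 in CHG and 0.719 and 0.724 for the ratio. The cause was not tested, except that the higher limit itself raises the medians.

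Pericentromeres of 2 Mb to each side held 33.9% of members in ddb2-3 and 46.1% in cen, and of 5 Mb 66.9% and 74.3%. Protein-coding genes without flanks held 5.82% and 5.78%, and with flanks of 2 kb 51.9% and 42.2%. No paired analysis was possible because the result comes from no test, ddb2-3 and Col have 1 library each and cen has no labelled sample.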

Other observations

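Members also lay near genes of other functions, named after their values were seen. MIR396a, a microRNA gene whose product targets growth-regulating factors, held a gain in all contexts in both comparisons. In the authors' deposited tables its differences in CHH, CHG and CG were 0.115, 0.179 and 0.267 in ddb2-3 and 0.159, 0.199 and 0.427 in cen. Within 1 kb of SECA2, of protein transport in chloroplasts, they were 0.159, 0.527 and 0.695 in ddb2-3 and 0.181, 0.396 and 0.704 in cen, in the authors' deposited tables. BAM1 (AT3G23920), a beta-amylase, had 0.176 in CHH and 0.208 in CHG in ddb2-3, and 0.109 and 0.196 in cen, in the authors' deposited tables. All of these gains stand beside the same Col library.

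JMJD5, a jumonji protein linked to the circadian clock, had adjoining CHH windows of opposite sign beside a higher CHG region. On chromosome 3 the window from 7279101 to 7279200 was at 0.116 in ddb2-3 and 0.171 in cen, and the next, from 7279201 to 7279300, was at -0.217 in ddb2-3 and -0.158 in cen, in the authors' deposited tables. The CHG difference there was 0.163 in ddb2-3 and 0.214 in cen in the authors' deposited tables.

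Other genes had single members within 1 kb. In ddb2-3, near ERF5, an ethylene response factor, the authors' deposited tables gave -0.144 in CHH, -0.432 in CHG and -0.496 in CG. The protein-coding gene AT4G36925, within 1 kb of AP2, a regulator of flower development, had -0.111 in CHH and -0.254 in CHG in the authors' deposited tables. Near BBX15, a B-box zinc finger gene, ddb2-3 had 0.221 in CHH at chromosome 1, 8933101 to 8933200, and 0.237 in CHG in the authors' deposited tables. The cen member near BBX15 was another window, 8932901 to 8933000, in the pseudogene AT1G25430. It had 0.108 in CHH and 0.177 in CHG in the authors' deposited tables. In cen the pseudogene AT5G45605, within 1 kb of SUV2, a gene of the DNA damage checkpoint, had 0.146 in CHH and -0.125 in CHG in the authors' deposited tables. The pseudogene AT1G67626, within 1 kb of POLA2, a subunit of DNA polymerase alpha, had -0.103 in CHH and -0.264 in CHG in the authors' deposited tables. These genes were picked one by one and stand for no group.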
